A study of Mus musculus with 2 samples.

Results

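The cells described here are barcodes with the transcripts of plasmacytoid dendritic cells (plasmacytoid DCs) in tumour tissue of 2 mouse liver cancer models. A barcode is the tag that marks the RNA of 1 droplet, and a unique molecular identifier (UMI) counts 1 captured RNA molecule. A barcode was taken as a plasmacytoid DC when at least 2 of 5 genes, Siglech, Ccr9, Cox6a2, Klk1 and Pacsin1, each had at least 1 UMI. It also had to hold at most 1 UMI of Cd3d, Cd3e and Cd3g together, under 0.5% of its UMIs from C1qa, C1qb and C1qc, and at most 20% mitochondrial UMIs. The rule found 66 of 16410 barcodes, 64 of them in the NRAS.MYC.ND library and 2 in the AKT1.MYC library. The members were thus chosen by measured UMIs of these 5 genes and of the Cd3, C1q and mitochondrial genes, so the levels of these genes are given as a description only and support nothing else.

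Each library came from liver tumours of C57BL/6 mice that had received plasmids through the tail vein under high pressure, a route that transfects hepatocytes in the living animal. NRAS.MYC.ND mice received 19 ug of a human N-Ras construct, 1 ug of a human c-Myc construct and 2 ug of a plasmid for the Sleeping Beauty transposase, the enzyme that inserts the constructs into the genome. AKT1.MYC mice received 10 ug of an Akt1 construct, 10 ug of the human c-Myc construct and 5 ug of the transposase plasmid. Tumours were resected 14 weeks later, digested, enriched for live cells and run on a droplet platform that reads the 3 prime ends of transcripts. The labels do not explain the letters ND in NRAS.MYC.ND. Beside these letters they name no other allele or agent, and they give no age, sex or number of mice. With 1 library per model, no difference between the models has a replicate check and no test was made.

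Plasmacytoid DCs are a rare lineage of dendritic cells that arises in bone marrow, circulates in blood and enters inflamed or malignant tissue. They detect viral and self nucleic acids with Toll-like receptors in endosomes, and on such a signal they can release large amounts of type I interferon. Their identity depends on the E protein TCF4, a transcription factor that binds short DNA motifs called E boxes, and ID2, which blocks E proteins, favours conventional dendritic cells (conventional DCs), the cells that prime T cells.

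The RefSeq sequences of GRCm38.p6 held an upstream window for 4 of the 5 rule genes, and all 4 lie on the plus strand. The 250 bases before the transcript start are printed 5′ to 3′ because these genes define the cells and TCF4 was among the genes that stood out in them. Capitals mark CAGGTG or its reverse complement CACCTG, which is 1 form of the general E box CANNTG. The windows of Siglech (chr7:55767934-55768183), Ccr9 (chr9:123766961-123767210), Klk1 (chr7:44225110-44225359) and Pacsin1 (chr17:27684989-27685238) read as follows.
Siglech: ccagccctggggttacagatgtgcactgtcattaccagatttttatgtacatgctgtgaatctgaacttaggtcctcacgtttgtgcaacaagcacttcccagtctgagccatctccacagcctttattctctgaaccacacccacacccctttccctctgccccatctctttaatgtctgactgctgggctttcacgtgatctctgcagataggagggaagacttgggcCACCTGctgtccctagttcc
Ccr9: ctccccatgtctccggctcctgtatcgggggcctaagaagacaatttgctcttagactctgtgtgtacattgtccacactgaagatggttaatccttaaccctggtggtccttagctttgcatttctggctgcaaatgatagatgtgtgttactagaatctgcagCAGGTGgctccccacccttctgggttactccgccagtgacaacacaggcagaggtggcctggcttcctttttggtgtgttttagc
Klk1: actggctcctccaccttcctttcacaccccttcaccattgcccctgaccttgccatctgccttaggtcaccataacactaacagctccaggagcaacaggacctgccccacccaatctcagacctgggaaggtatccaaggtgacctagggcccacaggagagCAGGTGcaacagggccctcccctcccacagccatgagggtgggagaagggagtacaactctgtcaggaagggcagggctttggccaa
Pacsin1: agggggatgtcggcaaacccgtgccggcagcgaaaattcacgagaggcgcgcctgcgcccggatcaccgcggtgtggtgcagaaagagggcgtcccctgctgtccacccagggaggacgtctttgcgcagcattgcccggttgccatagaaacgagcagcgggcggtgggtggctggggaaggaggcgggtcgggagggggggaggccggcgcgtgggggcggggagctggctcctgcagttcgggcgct
Counted from the transcript start, the capitals begin at position -20 in Siglech, -85 in Ccr9 and -87 in Klk1, and the Pacsin1 window held no CANNTG. On both strands, CANNTG was found in 66.2% and CAGGTG in 17.2% of all 32851 windows of the table. Among the 36 genes listed below as other plasmacytoid DC genes, 28 had a window, and of their 35 windows 71.4% held CANNTG and 25.7% held CAGGTG. A match of letters is a description of the sequence and not a binding site.

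Each of the 5 rule genes was nearly absent from the other barcodes of NRAS.MYC.ND, except Pacsin1. Siglech, a sialic acid-binding receptor of mouse plasmacytoid DCs (GRCm38 chromosome 7, 55768178 to 55778925), had 0, 11 and 24 UMIs in the lowest, median and highest of the 64 members. The corresponding values were 0, 4.5 and 22 UMIs for Ccr9, the receptor of the gut and thymus chemokine CCL25 (chromosome 9, 123678439 to 123784330), and 0, 4 and 29 for Cox6a2, the striated muscle form of a cytochrome c oxidase subunit (chromosome 7, 128205435 to 128206387). Klk1, a tissue kallikrein (chromosome 7, 44225360 to 44229618), ranged from 0 through 2 to 109 UMIs, and Pacsin1, an adaptor of membrane trafficking (chromosome 17, 27655509 to 27711482), from 0 through 1 to 6. Siglech was seen in 62 members, Ccr9 in 56, Cox6a2 in 52, Pacsin1 in 48 and Klk1 in 41, so Klk1 was the rule gene with the widest spread. In the other 6033 kept barcodes of that library the levels were 2.71 CPM (a gene's UMIs per 1e+06 UMIs of a population's barcodes added together) for Siglech, 1.95 for Ccr9, 2.11 for Cox6a2, 0.91 for Klk1 and 7.97 for Pacsin1. In the members they were 1773, 974, 1012, 1560 and 281 CPM in the same order.

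Most members held several of the rule genes, and those that held only 2 differed from the rest in genes the rule did not use. All 5 genes were seen in 29 members, 4 in 18, 3 in 8 and 2 in 9. In the 55 members with at least 3, Tcf4 was detected in 100% and Irf8, a transcription factor of dendritic cells, in 98.2%, and the 11 class II genes summed to 148 per 10000 UMIs. In the 9 members with exactly 2, just inside the threshold, the shares were 77.8% and 66.7% and class II stood at 455 per 10000. Of the 2916 class II UMIs of these 9, 2564 lay in the 4 members with Id2 and high class II described below. Tcf4 was seen in 7 of the 9 and in 2 of those 4. Just outside, 380 barcodes with exactly 1 rule gene had Tcf4 in 27.4% and Irf8 in 43.7%. Of these, 230 were T cells by their Cd3 UMIs and 252 carried Pacsin1 as the only rule gene. Another 6 barcodes failed only the Cd3 limit, 1 only the C1q limit and 1 both, and 1 exceeded the mitochondrial limit.

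**Figure D1:**
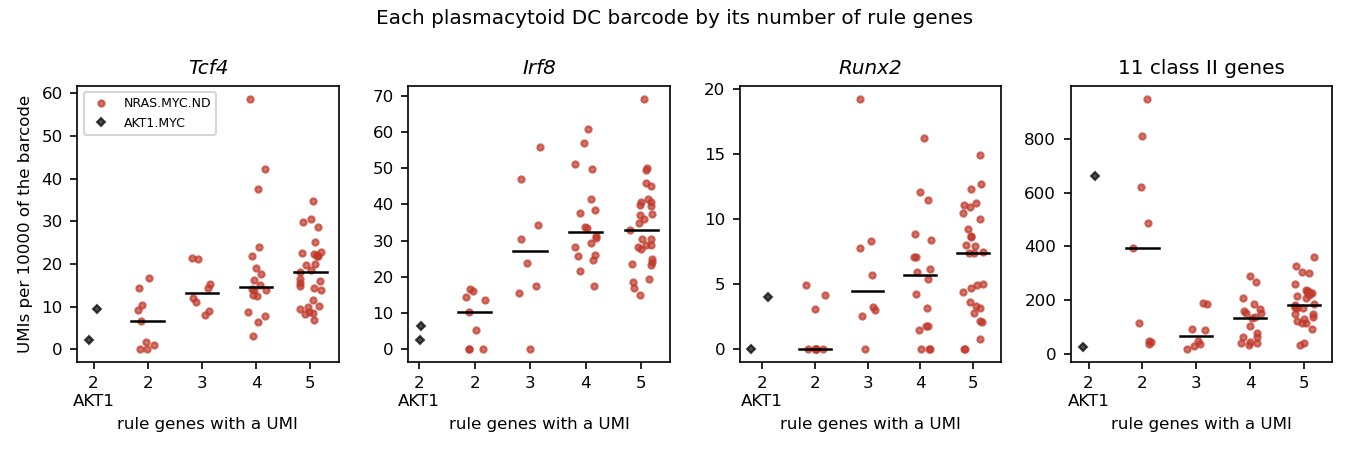
Each point is 1 plasmacytoid DC barcode, placed by its number of rule genes with a UMI (horizontal) and by UMIs per 10000 UMIs of the barcode for Tcf4, Irf8, Runx2 or the 11 class II genes (vertical), with black bars at the medians and diamonds for the 2 AKT1.MYC barcodes. Of the 9 NRAS.MYC.ND members with 2 rule genes, 4 lie above 400 in class II genes, and no other NRAS.MYC.ND member does.

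The libraries held 42416125 UMIs in 6312 barcodes (NRAS.MYC.ND) and 64516171 in 10766 (AKT1.MYC), of which 6097 and 10313 were kept, with medians of 4240 and 1866 UMIs. No barcode had fewer than 500 UMIs. The 64 members had from 599 to 18617 UMIs, with a median of 5035 and a median of 2018 genes. The libraries shared 17 barcode sequences, and 0 of them were members. For comparison in NRAS.MYC.ND, conventional DCs (203 barcodes, median 11136 UMIs) held at least 2 of Flt3, Zbtb46, Xcr1, Clec9a and Cd209a, B cells (354, median 1950) at least 2 of 5 genes that include Cd79a, Cd79b, Ms4a1 and Pax5, T cells (1573) at least 2 Cd3 UMIs, and C1q macrophages (1200) at least 0.5% C1q UMIs. Of the members, 20 also met the conventional DC gate and stayed with the plasmacytoid DCs.

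Markers of other cell types were counted as well. The rule itself limited the Cd3 and C1q genes, and Cd3, C1q and B cell genes chose the populations set beside the members, so these sums are a description. Over 9 T cell markers the members held 221 CPM against 7752 in T cells, with Cd3d and Thy1 at 0 and 62 UMIs from Cd8b1. Over 10 macrophage markers they held 726 CPM against 25528 in C1q macrophages, with Marco at 0. Over 9 B cell markers they held 16.2 CPM against 2820 in B cells, with 6 genes including Ms4a1 and Pax5 at 0. Hepatocyte markers, present in every member as 7 to 58 UMIs, summed to 3915 CPM against 21556 in the other barcodes. Endothelial markers summed to 831 CPM, and 3 members with 37, 61 and 138 such UMIs carried most of them. Of the 6 endothelial genes 3 were at least 2-fold lower than in all others, where 13.7% of all measured genes were, and their median log2 ratio of -0.96 was -3.92 without those 3 members. The part of these RNAs in the results below was not tested.

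Barcodes that met the plasmacytoid DC rule were a small share of NRAS.MYC.ND and almost missing from AKT1.MYC. They made up 64 of 6097 kept barcodes of NRAS.MYC.ND, 1.05% (95% exact Clopper-Pearson interval 0.809 to 1.34), and 2 of 10313 of AKT1.MYC, 0.0194% (0.00235 to 0.0700). These counts include 4 NRAS.MYC.ND members for which the label does not hold by the markers described below, and 1 AKT1.MYC member that met the same limits. All intervals here cover counting error only. Among barcodes with a UMI of Ptprc, the gene of the leukocyte antigen CD45, the shares were 62 of 3528, 1.76% (1.35 to 2.25), and 2 of 2747, 0.0728% (0.00882 to 0.263). With every barcode thinned to 1000 UMIs, which left out 398 and 2916 shallower ones, the rule found 54 of 5699, 0.948%, and 0 of 7397, which allows up to 0.0406%. Among the 54 were 50 of the 63 NRAS.MYC.ND members deep enough to be thinned, and the rest of the 54 passed the rule only after thinning. The counts of 2 rest on Siglech and Ccr9 and were 0 when either gene was left out. Across the whole AKT1.MYC library Siglech had 13 UMIs in 11 barcodes, Ccr9 15 in 12, Klk1 12 in 9 and Pacsin1 20 in 17, while Cox6a2 had 55 in 51 barcodes, none of them a member. The part of live-cell enrichment in these shares was not tested, and the model cannot be told apart from the library.

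The transcription factors that define the lineage were high in the members, and 4 of 10 factors of conventional DCs and opposing factors were at least 2-fold lower than in all other barcodes. Tcf4 had 0, 8 and 20 UMIs in the lowest, median and highest member and was missing from 2 of the 64. Its level was 1387 CPM (95% Poisson interval 1270 to 1512) against 216 in all other kept barcodes, 178 in conventional DCs, 102 in T cells and 95.3 in C1q macrophages, a log2 ratio of 2.68 (2.55 to 2.81) to all others. Irf8 had 0, 16 and 44 UMIs and stood at 2725 CPM against 221 in all others and 757 in conventional DCs (log2 ratios 3.62 and 1.85). Members and the other populations were thus separated in both genes by more than counting error. Runx2, a factor needed for the exit of plasmacytoid DCs from bone marrow, had 0, 3 and 9 UMIs and stood at 507 CPM against 12.1 in all others. Spib, an ETS factor of plasmacytoid DCs and B cells, stood at 94.4 CPM against 1.75 in all others and 36.5 in B cells. Bcl11a, which acts upstream of Tcf4 and Id2, stood at 256 CPM against 7.54, and Mef2c at 1551 CPM against 200 and 959 in B cells.

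To set shares side by side at equal depth, barcodes were thinned to 3645 UMIs, which kept 57 members, 197 conventional DCs, 542 T cells and 943 C1q macrophages. Tcf4 was then seen in 96.5% of members (87.9 to 99.6) against 30.5% of conventional DCs, and before thinning in 96.9% against 51.2%. Runx2 was seen in 78.9% against 6.09% of conventional DCs and 2.76% of macrophages (81.2%, 14.8% and 5.83% before thinning). Spib was seen in 36.8% against 0.508% and 0.106% (45.3%, 0.985% and 0.417% before thinning). Free RNA in droplets can give UMIs in cells that lack a gene. In T cells, whose median depth was 3033 UMIs, the thinned shares were 14.2% for Tcf4, 9.41% for Runx2, which T cells can also express, and 0.738% for Spib.

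Of the 15 plasmacytoid DC transcription factors listed, all were measured (at least 10 UMIs over both sides), and 9 were at least 2-fold higher than in all other barcodes and 0 lower, with a median log2 ratio of 2.20. Over all 18147 genes measured, 11.6% were higher and 13.7% lower by that rule, with a median of 0.02. All gene lists were chosen with earlier results of these data known, so their counts are a description. Against conventional DCs 10 of 15 were higher and 0 lower (median 2.52), where 14.2% of 10845 genes were higher and 14.0% lower (median 0.05). Irf7, the inducible factor of the interferon genes, was among the genes that did not pass 2-fold, at 210 CPM against 186 in all others. Of 10 factors of conventional DCs and opponents, 1 was higher and 4 lower than in all others (median -0.62). Id2 had 0, 0 and 34 UMIs, was detected in 14 members, and stood at 224 CPM against 674 in all others and 1507 in conventional DCs, 6.73-fold lower than the latter. Most Id2 UMIs lay in few members: in the 55 with at least 3 rule genes Id2 stood at 48.9 CPM, a log2 ratio of -4.93 to conventional DCs in place of -2.75. Batf3, a factor of type 1 conventional DCs, had 1 UMI in all 64 members, and Zbtb46 had 3. Mycl, which supports conventional DCs, went the other way at 189 CPM against 8.96 in all others, a log2 ratio of 4.40. Against conventional DCs 0 of these 10 factors were higher and 4 lower (median -0.84).

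With the sums scaled by the median of gene ratios in place of total UMIs, log2 ratios shifted by -0.19 against all others, -0.22 against conventional DCs and -0.46 against B cells. Of the genes called against conventional DCs, 50.4% were higher by total UMIs and 36.0% by the median of ratios. The same shares against B cells were 64.7% and 36.4%. List medians below are read against these shifts. List counts below are read against the shares called over all measured genes. These were 11.6% higher and 13.7% lower against all others, and 14.2% and 14.0% against conventional DCs. Against B cells they were 20.1% and 10.9%.

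**Figure D2:**
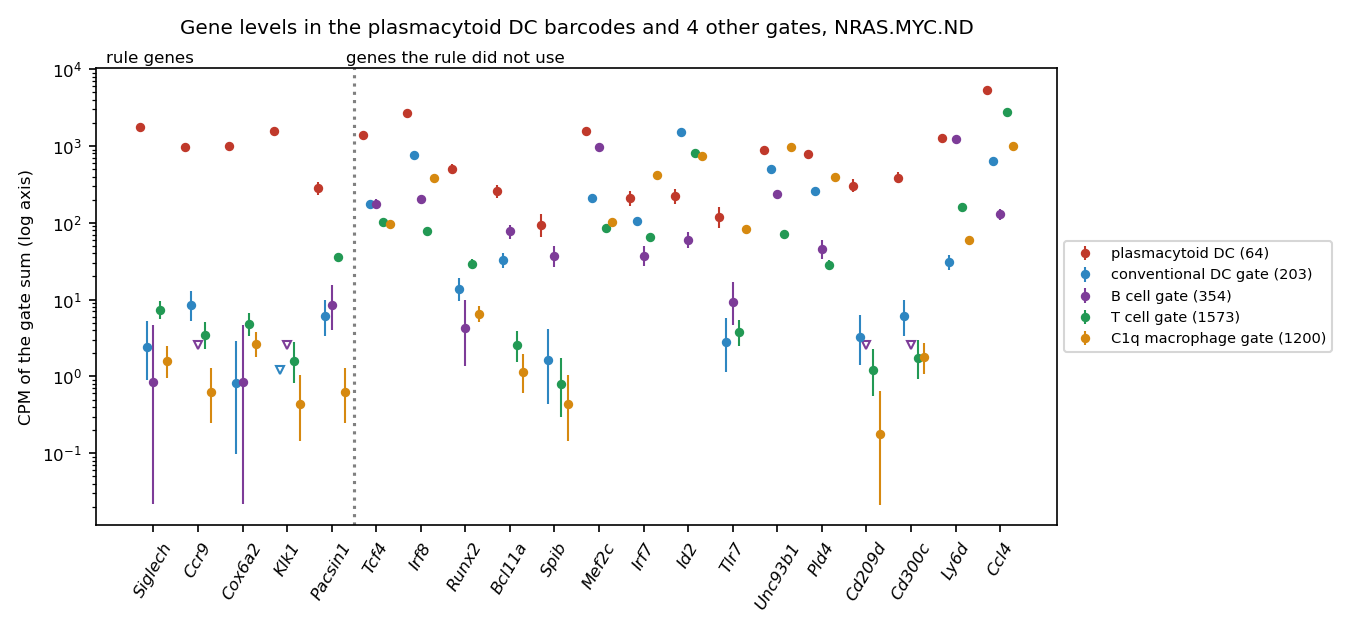
Levels of the 5 rule genes and of genes the rule did not use, in CPM of each population's sum (log axis), with 95% Poisson intervals and open triangles at the limit that 3 counts allow where a population had 0 UMIs. Tcf4, at 1387 in the 64 plasmacytoid DC barcodes, lies above the other 4 populations, and Id2, at 224, lies below conventional DCs, T cells and macrophages.

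Genes of the plasmacytoid DC surface and of its development stood out most. Of 36 other genes known from mouse plasmacytoid DCs, 35 were measured against all others, with 31 higher, 0 lower and a median log2 ratio of 3.39, and against conventional DCs 31 of 33 were higher (median 4.62). This list too was chosen with earlier results of these data known. Cd209d, a C-type lectin (GRCm38 chromosome 8, 3871824 to 3878555), had 0, 1 and 12 UMIs and was seen in 34 members, at 305 CPM against 0.697 in all others, 438-fold. Cd300c, an activating receptor, stood at 386 CPM against 1.80, 214-fold. Both were rare elsewhere in this library, where Cd209d reached 142 UMIs in 54 barcodes, 113 of the UMIs in members. Bst2, the tetherin that binds virus particles and is the classical antibody target on mouse plasmacytoid DCs, stood at 2499 CPM against 428 in all others. Ly6c2 stood at 917 CPM against 82.6, and Plac8 at 2709 against 377. Atp1b1, a sodium pump subunit, stood at 459 CPM against 33.8 in all others and 1.62 in conventional DCs. Lair1, an inhibitory collagen receptor, stood at 872 against 130.

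Several of these genes are shared with lymphocytes. Ly6d, a marker of lymphoid commitment, had 0, 4 and 33 UMIs and stood at 1255 CPM in the members and 1253 in B cells, against 30.7 in conventional DCs. Cd7 stood at 990 CPM against 277 in T cells and 35.2 in conventional DCs, and Lag3, a checkpoint receptor that binds class II, at 335 against 285 and 10.1. Blnk, an adaptor of the B cell receptor, stood at 219 CPM against 196 in B cells, and Fcrla at 300 against 184. Dntt, the terminal transferase of early lymphocytes, had 43 UMIs in 22 members, 116 CPM against 1.71 in all others, while the recombinase gene Rag1 and the pre-T receptor gene Ptcra had 0 UMIs. Cd4 stood at 86.3 CPM against 14.7 in T cells. Cd8b1 stood at 167 CPM, below the 467 of T cells and with a log2 ratio of 0.89 to all others that was 1.15 with at least 3 rule genes, and was seen in 24 members with at most 11 UMIs. After thinning, Cd8b1 was seen in 31.6% of members, 1.02% of conventional DCs and 64.8% of T cells. Against B cells, 27 of 33 measured genes of the list were higher and 0 lower, where 20.1% of 9259 genes were higher and 10.9% lower. Of the 36 genes, Ly6a (750 CPM against 761) and Nrp1 (121 against 220) did not pass 2-fold, and the log2 ratio of Nrp1 of -0.86 was -1.90 without the members with endothelial UMIs.

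Immunoglobulin constant genes gave an uneven pattern. Iglc3, a lambda light chain constant gene, had 0, 2 and 11 UMIs, was seen in 45 members and stood at 507 CPM, against 450 in B cells, 5.73 in T cells and 0.808 in conventional DCs. Igkc, the kappa constant gene, stood at 577 CPM in the members, 118517 in B cells and 3887 in T cells. The members were thus near the B cell level in Iglc3 and far below it in Igkc. Iglc2 was seen in 18 members, at 313 CPM, and Ighm, the mu heavy chain constant gene, at 963 CPM against 243 in all others and 6821 in B cells. Iglc2 and Iglc3 are near-identical copies, so the division of reads between them is uncertain. Jchain, abundant in B cell and plasma cell RNA, had 2 UMIs in the members.

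The largest ratios to all other barcodes, beside rule genes and genes already named, included 2 further genes best known from striated muscle. Atp2a1, a calcium pump of muscle, had 39 UMIs, 105 CPM, and stood 337-fold above all others. Sh3bgr stood at 162 CPM, 259-fold above. Like Cox6a2 they were found in few other barcodes. Of 15 other cytochrome c oxidase subunit genes 0 passed 2-fold in either direction, but 4 of them had 0 UMIs on a side. For these 4 a floor took the place of the 0, so their ratios are bounds and do not show a similar level. The subunit genes with UMIs on both sides had a median log2 ratio of -0.06. Cox6a2 itself helped choose the members, so its difference from these genes is a description only. Klk1b27, a kallikrein of the same cluster as Klk1 (chromosome 7, 44052290 to 44056712), had 102 UMIs in 30 members, 275 CPM against 0.817. The other 12 glandular kallikreins of the list had 0 UMIs in the members. Kallikrein copies are near-identical, so the division of reads between Klk1 and Klk1b27 is uncertain. The others were Hs3st1, a heparan sulfate sulfotransferase (254 CPM, 43.6-fold), Smim5 (194 CPM, 81.7-fold), Cyb561a3, a lysosomal reductase (378 CPM, 32.1-fold), Mctp2 (197 CPM, 31.1-fold), Rpgrip1 (364 CPM, 28.7-fold) and the noncoding gene Eldr (105 CPM, 97.4-fold).

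The receptor Tlr7 and its accessory proteins were expressed, and Tlr9 was hardly detected. Tlr7, the endosomal sensor of single-stranded RNA (chromosome X, 167304929 to 167330558), had 0, 0 and 3 UMIs, with 44 UMIs in 31 members. It stood at 119 CPM (86.3 to 159), against 29.7 in all others, 2.83 in conventional DCs and 81.8 in C1q macrophages. After thinning it was seen in 33.3% of members (21.4 to 47.1), 1.02% of conventional DCs and 28.3% of macrophages, so members and macrophages were close. Tlr9, the sensor of unmethylated CpG DNA, had 1 UMI in the 64 members, a log2 ratio to all others of 3.11 with an interval from -2.30 to 5.85. Pld4, a nuclease that trims the ligands of these receptors, stood at 788 CPM against 174 in all others, while its relative Pld3 stood at 21.6 against 144. Slc15a4, a lysosomal transporter, and 5430427O19Rik, the adaptor TASL that binds it, stood at 83.6 and 45.9 CPM against 20.2 and 9.44. Unc93b1, which carries the receptors to endosomes, stood at 880 CPM against 412, a log2 ratio of 1.09 that was 0.90 with median-of-ratios scaling. Of 18 measured sensing genes 7 were higher, among them Tlr9 by its single UMI, and 2 lower than in all others (median 0.92), and against conventional DCs 4 of 17 were higher and 1 lower (median 0.52). Traf3 had 0 UMIs, and Myd88, the adaptor of these receptors, did not pass 2-fold, at 78.2 CPM against 41.1.

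No interferon transcript was detected in the plasmacytoid DCs. The 19 type I and III interferon genes listed had 0 UMIs among the 370614 of the 64 members, which allows up to 8.09 CPM and up to 4.69% of members with a UMI. The other barcodes of the library held 31 interferon UMIs in 8 barcodes, of which 1 conventional DC held 16. At this depth low or brief interferon expression was not detectable.

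The receptor for type I interferon was high while many genes that interferon induces were low. Ifnar1 and Ifnar2, its chains, stood at 391 and 394 CPM against 69.8 and 164 in all others (log2 ratios 2.49 and 1.26). Stat2, the signal transducer specific to these interferons, stood at 159 CPM against 40.5. Ifngr1, the ligand-binding chain of the interferon gamma receptor, went the other way, at 83.6 CPM against 284 in all others and 386 in conventional DCs. Of 12 receptor and signal genes 3 were higher and 1 lower (median 0.37). Of 28 interferon-stimulated genes 0 were higher and 17 lower than in all other barcodes, with a median log2 ratio of -1.31. Against conventional DCs 0 of 26 were higher and 12 lower (median -0.94), and against B cells 5 of 22 were higher and 3 lower (median 0.08). The B cell counts are near the shares over all measured genes, 20.1% higher and 10.9% lower. Lower than in all others were 13.7% of all measured genes, and lower than in conventional DCs 14.0%. Isg15, a ubiquitin-like protein, had 6 UMIs in 5 members, 16.2 CPM (5.94 to 35.2), against 137 in all others, 99.4 in conventional DCs and 126 in C1q macrophages, an 8.44-fold lower level than all others. Its log2 ratio to all others of -3.08 was -3.88 without the 3 members with endothelial UMIs, which held 3 of its 6 UMIs. Ifit3 had 0 UMIs against 56.9 CPM in all others, at least 7.03-fold lower with the floor of 3 counts set over all members. Rtp4 stood at 16.2 against 94.9 CPM and Rsad2, the antiviral viperin, at 24.3 against 92.7. Each was seen in 3 members, and without the members with endothelial UMIs their log2 ratios of -2.55 and -1.93 were -4.93 and -3.90. Members of the list that stayed near the other barcodes were Ly6e (1740 against 1313 CPM) and Ifi27l2a (621 against 498). Summed over the 28 genes, members held 0, 25.5 and 66.8 UMIs per 10000 in the lowest, median and highest barcode.

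At 3645 UMIs Isg15 was seen in 7.02% of members (1.95 to 17.0), 21.3% of conventional DCs, 28.8% of T cells and 26.1% of macrophages. Before thinning the shares were 7.81%, 40.9%, 26.0% and 43.6%. Ifit3 was seen in 0% of 57 members, which allows up to 5.26%, against 10.7% of conventional DCs and 22.8% of macrophages.

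**Figure D3:**
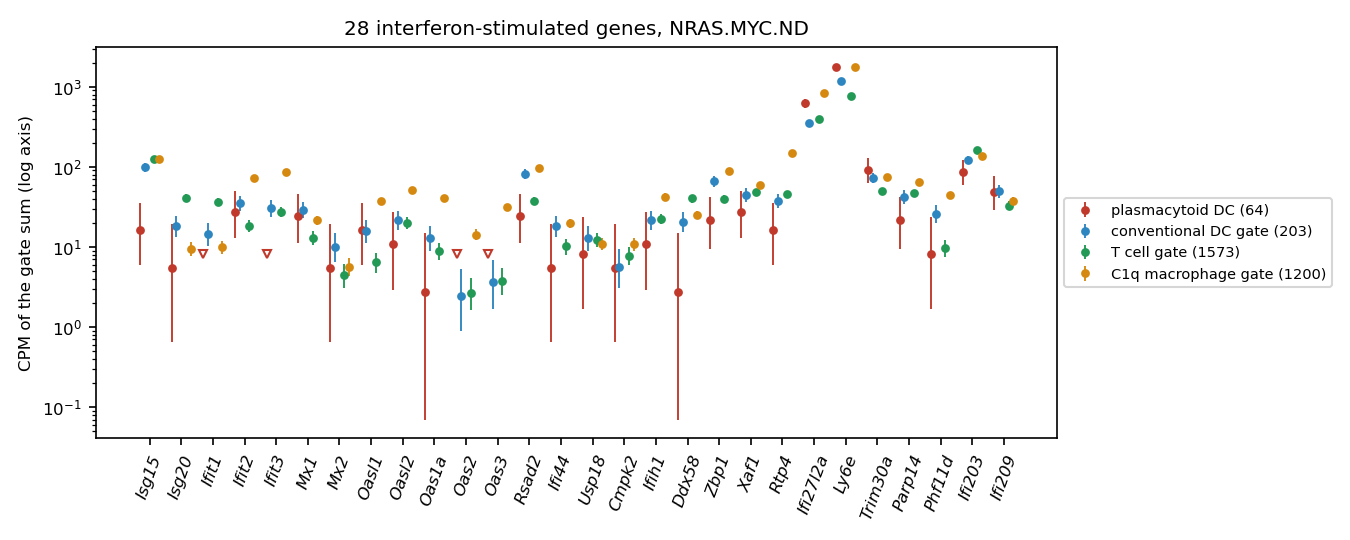
Levels of the 28 interferon-stimulated genes in CPM of each population's sum (log axis) with 95% Poisson intervals, and open triangles at the limit that 3 counts allow where the population had 0 UMIs. The plasmacytoid DC values lie below those of macrophages for Isg15 (16.2 against 126) and Rtp4 (16.2 against 147) but not for Ly6e (1740 against 1780).

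Among secreted signals, the members were marked by Ccl4, a chemokine that attracts leukocytes (chromosome 11, 83662584 to 83664683). It had 0, 19 and 122 UMIs, was seen in 58 members and stood at 5348 CPM (5115 to 5589). The level was 985 in all others, 640 in conventional DCs, 2787 in T cells and 1010 in C1q macrophages, a log2 ratio of 2.44 to all others. After thinning Ccl4 was seen in 87.7% of members, 49.7% of conventional DCs, 67.2% of T cells and 71.7% of macrophages. Its neighbour and relative Ccl3 did not pass 2-fold, at 335 CPM against 407 in all others. Ccl5 stood at 219 CPM against 4527 in all others and 22553 in T cells. Il12a, a subunit of interleukin 12, had 11 UMIs in 8 members, 29.7 CPM against 1.80 in all others and 48.4 in B cells, and Il12b and Il6 had 0. Cxcl9 and Cxcl10, chemokines induced by interferon, stood at 43.2 and 27.0 CPM against 230 and 114, log2 ratios of -2.42 and -2.08 that were -4.14 and -4.13 in the members with at least 3 rule genes. The costimulatory ligand gene Cd86 stood at 32.4 CPM against 86.1 in all others and 124 in conventional DCs (log2 ratio to all others -1.41, and -2.14 with at least 3 rule genes), Cd80 and Ido1 had 0 UMIs, and Gzmb had 1. Of 24 co-signalling genes 2 were higher and 7 lower than in all others (median -0.93), and 2 of 18 were higher and 11 lower than in conventional DCs (median -1.41).

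Class II presentation was lower in the members than in conventional DCs and near the average of the library. The 11 class II genes summed to 18.2, 156 and 949 UMIs per 10000 in the lowest, median and highest member. Cd74, the invariant chain, had 1, 42.5 and 483 UMIs and stood at 11136 CPM against 13264 in all others and 34485 in conventional DCs. H2-Aa stood at 3599 CPM against 4253 and 12372. The 4 members with Id2 and high class II described below held 1399 of the 4127 Cd74 UMIs. In the members with at least 3 rule genes Cd74 stood at 8344 CPM and H2-Aa at 2600. Over all 64 members, 0 of the 11 genes were higher and 7 lower than in conventional DCs (median -1.63). Against all others 1 was higher and 0 lower (median -0.21), and in the 55 members with at least 3 rule genes 4 were lower (median -0.71). H2-Oa, a regulator of peptide loading, was the gene above all others, at 124 CPM against 28.8, and stood at 196 in conventional DCs.

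Of 15 genes of conventional DCs 1 was higher and 9 lower than in the conventional DC gate, some of whose genes chose that gate. Against all others 6 were higher and 3 lower (median 0.59), and in the members with at least 3 rule genes 4 were higher and 6 lower, with a median of the opposite sign, -0.63. Cst3, a protease inhibitor abundant in conventional DCs, had 0, 6 and 371 UMIs and stood at 3527 CPM against 16990. The 4 members with Id2 and high class II described below held 833 of its 1307 UMIs, and the members with at least 3 rule genes stood at 1220 CPM. Flt3, the receptor for the growth factor of both dendritic lineages, stood at 116 CPM against 140 in conventional DCs, where it helped choose the gate, and 11.8 in all others. Il7r stood at 148 CPM against 3.64 in conventional DCs. Ccr7, which guides dendritic cells to lymph nodes, had 1 UMI in the members against 112 CPM in conventional DCs. The largest differences downwards from conventional DCs included Tbc1d4 (log2 ratio -4.72), Rab7b (-3.28), Tnip3 (-3.24), Olfm1 (-2.98), Tubb6 (-2.89), Ccl6 (-2.87), Cxcl16 (-2.78) and Tgfbi (-2.78). In the members with at least 3 rule genes Tbc1d4 was -3.84, Rab7b -5.31, Olfm1 -4.81 and Tubb6 -4.18, and without the members with endothelial UMIs Cxcl16 was -3.90.

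Adaptor genes of receptor signalling were more often higher than lower against all others, while against B cells their median was near that of all genes. Most secretory genes did not pass 2-fold. Of 15 genes of ITAM adaptors and B-receptor-like signalling, the route used by SIGLEC-H, 9 were higher and 1 lower than in all others (median 1.11). Against B cells 6 of the 15 were higher and 4 lower (median 0.23), where all measured genes had a median of 0.28. Tyrobp, the DAP12 adaptor, stood at 3918 CPM against 1330 in all others, Syk at 135 against 43.1, and the phosphatase receptor Ptprs at 224 against 17.6. Fcer1g did not pass 2-fold, at 1495 against 1813. Of 23 measured secretory genes 7 were higher and 1, Jchain, lower (median 0.61), among them Herpud1, a part of protein disposal from the endoplasmic reticulum, at 626 CPM against 143, and Sec11c, a signal peptidase subunit, at 510 against 155. Against B cells, where Jchain stood at 14091 CPM, 1 was higher and 6 lower (median -0.05). With the mean of per-barcode shares in place of the summed counts, 9 were higher and 2 lower than in B cells (median 0.67). Of 13 lysosomal genes 4 were higher and 0 lower than in conventional DCs (median 0.36), among them the protease gene Ctsl at 1927 CPM against 429. Against all others 1 of the 13 was higher and 3 were lower (median 0.22). Of 18 cell cycle genes 0 were higher and 10 lower than in all others (median -1.0), and 16 were lower than in conventional DCs (median -1.79). Mki67 had 2 UMIs, both in 1 of the 4 members with Id2 and high class II described below. That barcode held 85 of the 346 cell cycle UMIs of the members, and 1 member outside the sets described below held 41. Of 17 homing and adhesion genes 7 were higher and 5 lower than in all others, with Selplg, the ligand of the selectins, at 812 CPM against 145, S1pr1, the receptor for exit from lymph nodes, at 10.8 against 94.6, and Cxcr6 at 0. Without the members with endothelial UMIs the log2 ratio of S1pr1 was -4.93 in place of -3.13. Of 10 growth factor receptor genes 3 were higher and 3 lower, with Csf2rb2 at 202 CPM against 31.4 and Csf1r, the macrophage growth factor receptor, at 59.4 against 349. Of 11 genes linked to transitional dendritic cells 7 were lower than in all others and 0 higher (median -1.94), with Lyz2 at 205 CPM against 2730 and Cd2 at 0.

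**Figure D4:**
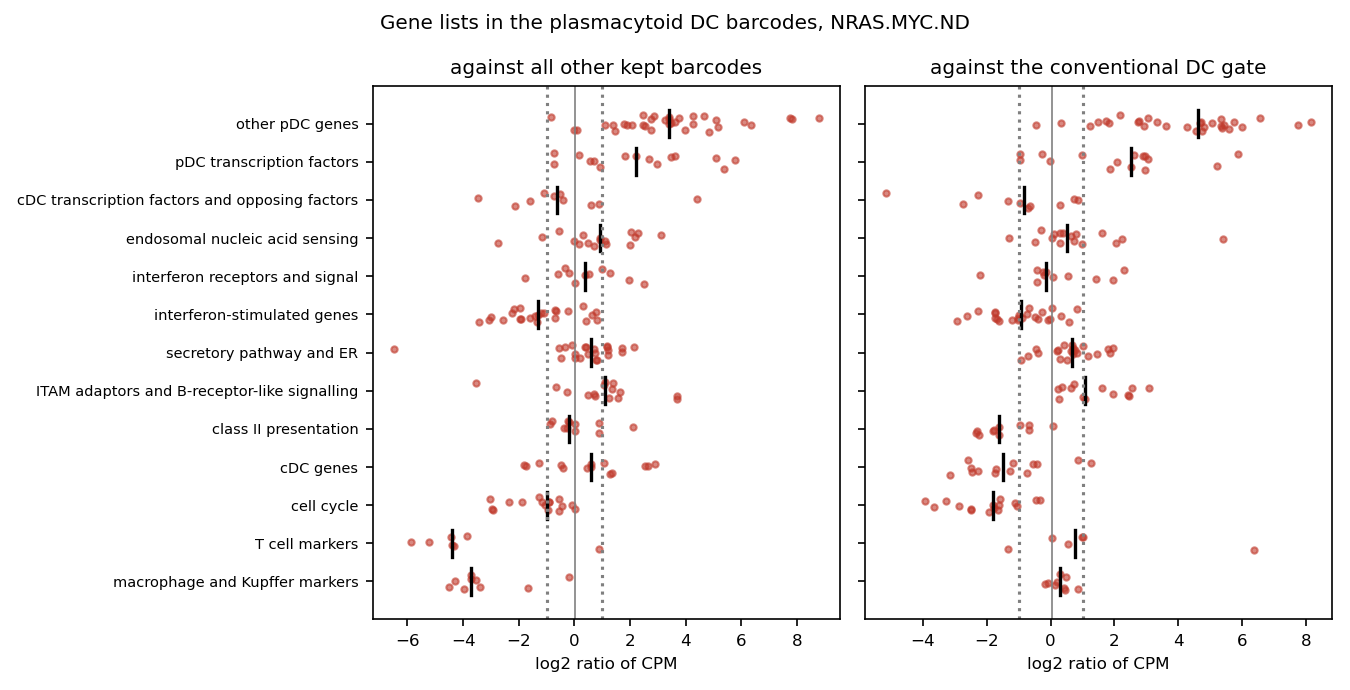
Each point is 1 gene of a list, placed by its log2 ratio of CPM in the plasmacytoid DC barcodes to all other kept barcodes (left) or to the conventional DC gate (right), with black bars at list medians, dotted lines at 2-fold and a grey line at the median of all genes. Other plasmacytoid DC genes have medians of 3.39 and 4.62, and interferon-stimulated genes of -1.31 and -0.94.

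The 64 members were not uniform. The sets below were drawn after the values were seen, they share 1 library, and they are descriptions. In 6 members Cd7 (7 to 32 UMIs), Crip1 (4 to 44) and Lgals3 (2 to 30), genes that include marks of transitional dendritic cells, were all high. These 6 also held Ms4a6c (4 to 14 UMIs) and Ccr2 (3 to 12), while Klk1, Tlr7 and Iglc3 had 0 UMIs, Ly6d had 2 UMIs over the set, and Irf8 was seen in 3 of 6. Tcf4 was present in each, with 4 to 20 UMIs. Their rule genes numbered 2 or 3, and their median class II level was 47.8 per 10000. Another 4 members, with 2 rule genes each, had at least 2 Id2 UMIs (2 to 34) and 485 to 949 class II UMIs per 10000. In these 4, Tcf4 had at most 1 UMI, Runx2, Spib and Ly6d had 0, Cst3 ranged from 10 to 371 and Xcr1, a receptor of type 1 conventional DCs, was seen in 3. By these markers the label plasmacytoid DC does not hold for these 4, which are called members only by the rule. The 3 members with at least 10 endothelial UMIs had 12967 to 18617 UMIs in total, against a highest value of 7689 in the members outside these sets. They held 15 to 20 UMIs of Tcf4 and 22 to 29 of Irf8, and 1 of them is among the 6 with Cd7. Each of these 3 was among the barcodes with the highest scores for a droplet of 2 cells. So were some of the 6 with Cd7. Whether these barcodes hold more than 1 cell was not tested.

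The other 52 members each had Siglech (1 to 24 UMIs), Tcf4 (1 to 16) and Irf8 (1 to 44), and their class II level ranged from 18.2 to 359 per 10000. Of these, 13 lay below 100 per 10000 and 39 at or above it. The 2 sides were alike in Siglech (2526 and 2467 CPM) and Tcf4 (1785 and 1685 CPM). Klk1 was seen in 6 of the 13 and 34 of the 39, at 488 and 2807 CPM, and Klk1b27 stood at 101 and 480. Ccl4 stood at 4160 and 7668 CPM, Ccl3 at 67.4 and 501, Cd8b1 at 67.4 and 303, and Iglc2 at 67.4 and 543. Ly6d went the other way, at 2577 and 1487 CPM. Iglc2 was seen in 17 of the 52, where single barcodes held 31 and 22 of its 108 UMIs. Cd8b1 was seen in 24 of the 52, where single barcodes held 11 and 9 of its 62 UMIs. Per barcode over the 52, the level of Cd74 and that of Klk1 had a Pearson r of 0.50 and a Spearman rho of 0.45, Cd74 and Ccl4 0.34 and 0.29, and Cd74 and Ly6d -0.14 and -0.14. These values describe cells of 1 library that share its depth and free RNA. Klk1 and Siglech also helped choose the members, so their levels, r and rho are a description only. Siglech and Tcf4 had an r of 0.60 and a rho of 0.33 over all 64 members, and -0.08 and -0.04 over the 52.

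**Figure D5:**
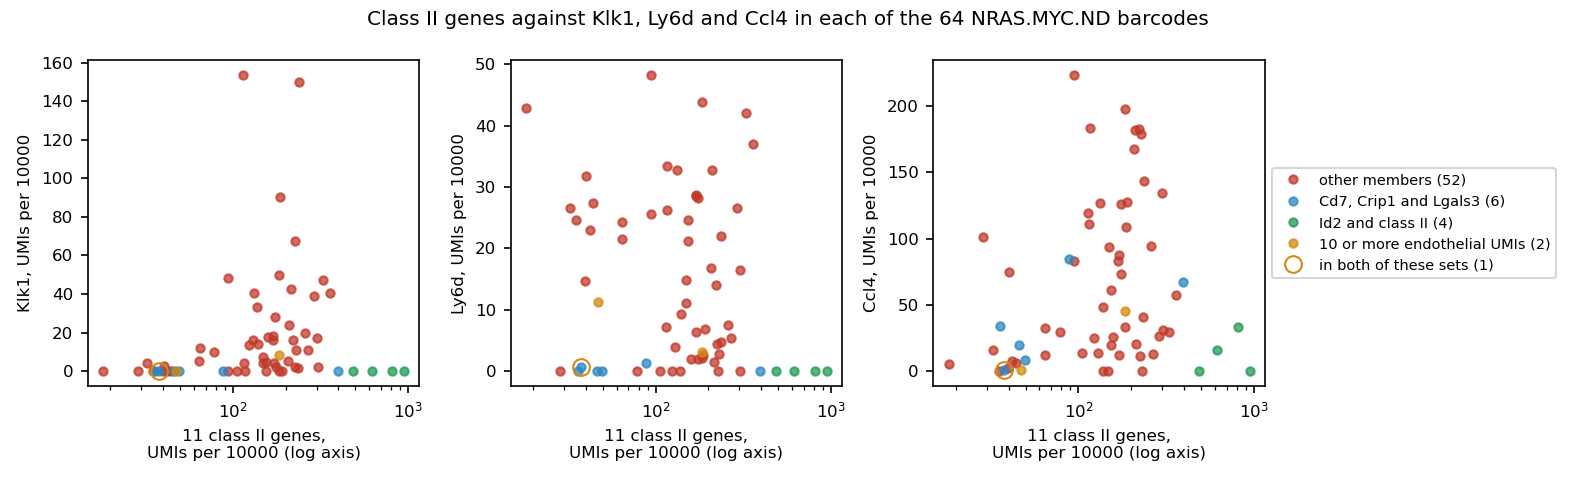
Each point is 1 of the 64 NRAS.MYC.ND plasmacytoid DC barcodes, placed by its class II UMIs per 10000 (horizontal, log axis) and by UMIs per 10000 of Klk1, Ly6d or Ccl4 (vertical), coloured by the sets in the text. High Klk1 points lie at class II levels near or above 100, and the 4 members with Id2 and high class II lie at 0 for Klk1 and Ly6d.

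The 2 members of AKT1.MYC each passed the rule through Siglech and Ccr9, with no UMI of Cox6a2, Klk1 or Pacsin1. The first, with 13955 UMIs, held 372 UMIs of Cst3, 13 of Id2 and 1 of Xcr1 beside 3 of Tcf4 and 9 of Irf8, a class II level of 661 per 10000, and it met the limits that set apart the 4 members of NRAS.MYC.ND with Id2 and high class II. The other, with 7527 UMIs, held 7 of Tcf4, 3 of Runx2, 1 of Spib, 8 of Bst2, 23 of Cd7, 20 of Crip1 and 18 of Lgals3 but 2 of Cd74, and it met the limits of the 6 members with Cd7, Crip1 and Lgals3. Neither held Ly6d above 1 UMI or any Cd209d or Cd300c. No AKT1.MYC barcode that passed the rule had 3 or more rule genes.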

How the data were processed

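Gene counts per barcode were used as deposited. The authors made them from droplet reads with Cell Ranger 6.1.2 on mm10, per the submitters' processing notes, while the file headers name version 6.1.1; no release of the gene annotation is given in the sources used. Depth was 42416125 UMIs for NRAS.MYC.ND and 64516171 UMIs for AKT1.MYC.

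Barcodes over 20% mitochondrial UMIs were left out (215 and 453). Members and comparison populations were taken by the UMI rules in the report, members first, and barcodes that met 2 other gates entered none. Members and gene lists were chosen with earlier results of these data known. Counts were summed per population. CPM carries exact 95% Poisson intervals and ratios carry exact conditional binomial intervals. A gene with at least 10 UMIs over both sides was measured and called at 2-fold; a zero was set to a floor of 3 counts. This procedure was tested on simulated data.

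The text names genes of the lists and, by rule, the 20 largest ratios to all others and the 10 largest and 10 smallest to conventional DCs. Such a gene needed 100 CPM on its higher side, 30 UMIs over both sides, a UMI in 20% of the barcodes of that side and an interval that excluded 2-fold. A higher gene also had to be at least at the level of every other gate. The rule passed over genes with placeholder names, antigen receptor segments, Xist and Y-linked genes, and mitochondrial, ribosomal and haemoglobin genes. Some genes of the lists are not reported here.

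Scrublet in Scanpy 1.11.5 marked 0.0158% and 0% of barcodes, too few to be used, so no doublets were removed. As an alternative the top scores at 0.8% per 1000 barcodes (319 and 984) were left out, of which 8 were members in NRAS.MYC.ND. Python 3.11.15, numpy 2.4.6, scipy 1.17.1, pandas 2.3.3 and matplotlib 3.10.9 were used. Promoter windows came from RefSeq (GRCm38.p6) and gene coordinates from GENCODE on GRCm38.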

Additional observations from a re-analysis of the deposited data

How the results depend on the processing

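No paired analysis was possible because each model had 1 library. The NRAS.MYC.ND count of 64 plasmacytoid DC barcodes ranged from 54 to 72 over the alternatives for the rule, depth and doublets. The AKT1.MYC count of 2 was 0 with at least 3 rule genes, 0 after thinning to 1000 UMIs, 0 without Siglech and 0 without Ccr9. The number of genes higher than in conventional DCs (1545) was 3179 with a UMI minimum of 1 and 903 with a minimum of 30. The number higher than in B cells (1860) was 1036 with median-of-ratios scaling, 3176 with a UMI minimum of 1 and 1012 with 30, and the number lower (1013) was 1810 with median-of-ratios scaling and 483 with 30. The UMI minimum changes how many genes are measured. Of the interferon-stimulated list 15 to 19 genes were lower than in all others over the alternatives that leave the UMI minimum, and of the other plasmacytoid DC list 30 or 31 were higher; these counts do not say which genes. Among the list medians that changed sign, those of monocyte and fibroblast markers against B cells were 0.80 and 0.87 with a UMI minimum of 1, and the homing list against all others (0.58) reached -0.09. Against B cells Bcl2a1d was -1.38 and Id2 -0.28 with at least 3 rule genes, and -0.97 and -0.077 without members that meet the conventional DC or B cell gate, where Lgals3 was -0.32 against B cells and Ccr2 -0.28 against all others; the cause was not tested. Of the other values of single genes 2731 stayed within the counting interval of the reported ratio and 506 moved beyond it. The exclusions of members with endothelial UMIs and of those with Cd7, Crip1 and Lgals3, and the Ptprc denominator, were chosen after seeing the data. Depth limits all statements on genes with few UMIs in 64 barcodes.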
